A study of Mus musculus with 8 samples.

Results

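The insulin-like growth factor (IGF) system was described here by 9 mouse genes of 15359 measured: the ligands Igf1 and Igf2, the receptor Igf1r and the binding proteins Igfbp2, Igfbp3, Igfbp4, Igfbp5, Igfbp6 and Igfbp7. They were picked by name and found through RefSeq identifiers, and all of their transcript rows were used, 13 of 19776. The samples were 4 cultured cell types of the C57BL/6 strain: Sertoli cells of the testis (SC, passage 2, grown with 10% fetal bovine serum), neural stem cells from fetal brain at E12.5 (NSC, passage 16, in medium with 10 µg/ml insulin, EGF and bFGF), induced pluripotent stem cells (iPSC, passage 22) and embryonic stem cells (ESC, passage 14), the last of these and the iPSC in medium with 20% KOSR and leukemia inhibitory factor. Each cell type had 1 RNA library and 1 library of fragments pulled down with an antibody against N6-methyladenosine (m6A), a methyl mark on adenosines of mRNA. No difference given here therefore has a replicate check, and no p-value was computed. The labels do not say how many cultures, animals or clones stand behind a library, nor how the iPSC were made.

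IGF1 and IGF2 are small secreted proteins that act through IGF1R, a tyrosine kinase of the cell surface that signals through insulin receptor substrates to the PI3K-AKT and Ras-MAP kinase pathways. The related receptor IGF2R carries no kinase and removes IGF2 from the cell's surroundings. The binding proteins hold IGFs outside the cell, lengthen their life and control how much ligand reaches the receptor; IGFBP7 binds IGFs only weakly. IGF signals are known to promote growth of Sertoli cells in the developing testis and survival of neural progenitors.

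Expression values were FPKM, fragment numbers divided by transcript length and by the size of the library, so levels can be set side by side between genes. The read depth behind them is unknown, and the summed FPKM of all genes differed between libraries, at 784129 in SC, 495222 in NSC, 376167 in iPSC and 557061 in ESC. Defining markers fitted the SC, iPSC and ESC labels: all 8 Sertoli cell markers in the table reached 1 FPKM in SC, and all 8 pluripotency markers did so in both iPSC and ESC. In NSC 6 of 9 neural stem cell markers reached 1 FPKM, at a median of 5.74 FPKM, with Sox1 listed at 0 and Nes at 9.10 FPKM, against 85.9 FPKM for Nes in SC. Fibroblast and peritubular myoid cell markers, 10 in the table, summed to 4611 FPKM in SC, 28.3 FPKM in NSC, 59.3 FPKM in iPSC and 5.97 FPKM in ESC; Col1a2 was listed at 0 in NSC and Col3a1 in ESC. The pluripotency gene Klf4 stood at 303 FPKM in NSC, while Pou5f1 was listed at 0 there.

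Each cell type had its own set of IGF binding protein transcripts. Summed over the 6 binding protein genes, the level was 2589 FPKM in SC, 218 FPKM in NSC, 288 FPKM in iPSC and 397 FPKM in ESC. In SC, Igfbp7 made up 51.1% of that sum, Igfbp2 26.4% and Igfbp3 22.0%. In NSC, Igfbp4 made up 50.0% and Igfbp6 34.9%, while Igfbp7 and Igfbp3 made up 0.118% and 0.305%. The pluripotent cells carried Igfbp2 nearly alone, at 93.0% of the sum in iPSC and 97.6% in ESC. These shares are taken within a library and do not depend on how the libraries are scaled against each other.

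**Figure D1:**
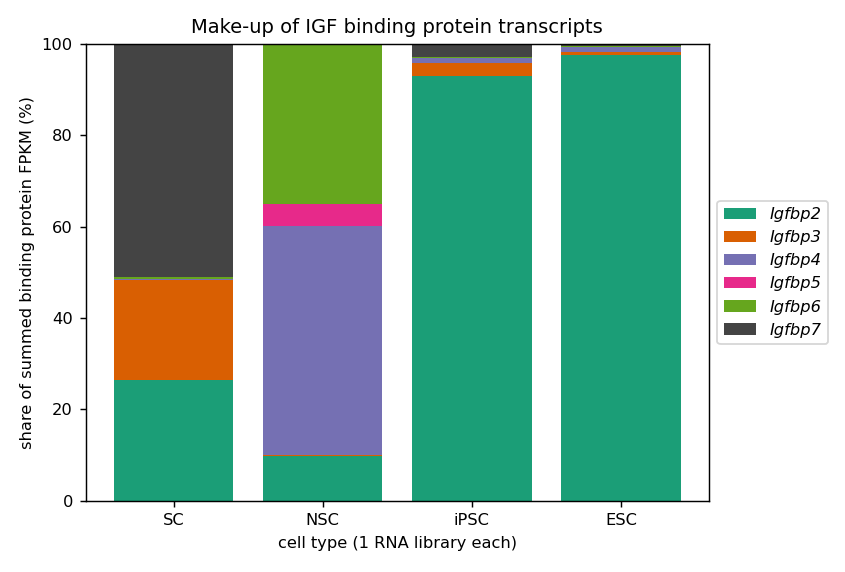
Share of the summed FPKM of the 6 IGF binding protein genes (y axis, percent) taken by each gene in each cell type (x axis, 1 RNA library each, transcripts of a gene summed). Igfbp7 fills 51.1% of the SC bar, Igfbp4 50.0% of the NSC bar, and Igfbp2 93.0% and 97.6% of the iPSC and ESC bars.

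Summed, the ligand genes were expressed at far lower levels than the binding protein genes. Igf1 and Igf2 were highest in different cell types. Igf1, listed in 2 transcript rows, summed to 2.92 FPKM in SC and 0.0270 FPKM in iPSC, stood at 3.48e-05 FPKM in ESC and was listed at 0 in NSC. SC was thus the only library of the 4 with Igf1 above 1 FPKM. In SC, row NM_001111275 held 2.31 FPKM and row NM_010512 held 0.611 FPKM. Igf2, an imprinted fetal growth factor gene expressed from the paternal copy, summed to 0.144 FPKM in SC, 17.7 FPKM in NSC, 2.33 FPKM in iPSC and 1.16 FPKM in ESC. In NSC its 3 rows were NM_010514 at 7.99 FPKM, NM_001122737 at 5.83 FPKM and NM_001122736 at 3.88 FPKM. In ESC NM_001122736 was nearly absent at 0.00285 FPKM, beside 0.725 FPKM for NM_001122737 and 0.430 FPKM for NM_010514. Igf2 shares exonic sequence with the antisense gene Igf2os and, on its own strand, with Gm49394. Whether the libraries kept strand is not given in the sources used here, and strand could not separate reads of the second pair in any case.

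Set against the ligand transcripts, the binding protein transcripts were in excess in all 4 libraries, by very different factors. Protein amounts were not measured. The summed binding protein FPKM was 846 times the summed FPKM of Igf1 and Igf2 in SC, 12.3 times in NSC, 122 times in iPSC and 343 times in ESC. NSC, where Igf2 was highest, had the lowest ratio. With Igfbp7 left out, the binding protein sum was 1267 FPKM in SC and 218 FPKM in NSC.

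The receptor gene Igf1r was higher in both differentiated cell types than in both pluripotent ones. It stood at 13.9 FPKM in SC and 8.39 FPKM in NSC, against 0.974 FPKM in iPSC and 1.49 FPKM in ESC. The mean difference was 2.42 on the log2(FPKM + 1) scale. On this scale 2-fold was judged throughout, and it understates the change of low genes. Both differentiated libraries were at least 2-fold above both pluripotent ones, as was the case for 12.49% of all genes, or 6.03% after median-ratio scaling. Between SC and NSC the receptor differed by 0.67 on that scale, close to the median of all genes, 0.51.

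Igfbp2, a binding protein prominent in fetal tissues, was among the most abundant transcripts in 3 libraries. It stood at 685 FPKM in SC, 21.4 FPKM in NSC, 268 FPKM in iPSC and 387 FPKM in ESC, which placed it 185th, 3021st, 190th and 195th of 15359 genes. NSC was the low library, and even there 72.5% of genes at 1 FPKM or more lay below Igfbp2. SC stood 1.77 times above ESC as deposited. After scaling of the libraries by the median ratio this order turned round, with 434 in SC and 506 in ESC, so no order is given between these cell types.

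Igfbp3, the main carrier of IGFs in blood, and Igfbp7 were far higher in the SC library than in the other 3. Igfbp3 stood at 569 FPKM in SC, 0.666 FPKM in NSC, 7.77 FPKM in iPSC and 2.65 FPKM in ESC. Igfbp7, whose protein is secreted into the extracellular matrix, summed to 1322 FPKM in SC, 0.256 FPKM in NSC, 8.21 FPKM in iPSC and 1.67 FPKM in ESC. Both genes shared the order SC, iPSC, ESC, NSC. Igf1 was also highest in SC, but its levels elsewhere, at most 0.0270 FPKM, were too low to order. Nearly all Igfbp7 signal fell on NM_008048, with 7.97 FPKM on NM_001159518 in SC. Igfbp7 shares exonic sequence with Polr2b on the opposite strand, so reads from their shared stretch cannot be assigned here.

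Igfbp4, Igfbp5 and Igfbp6 were highest in the NSC library. Igfbp4, which encodes a protein that restrains IGFs until the protease PAPP-A cuts it, stood at 0.758 FPKM in SC, 109 FPKM in NSC, 3.37 FPKM in iPSC and 4.66 FPKM in ESC. Igfbp6, whose protein prefers IGF2 over IGF1, stood at 11.6 FPKM in SC, 76.1 FPKM in NSC, 0.602 FPKM in iPSC and 0.523 FPKM in ESC. Igfbp5 stood at 0.720 FPKM in SC, 10.4 FPKM in NSC, 0.0963 FPKM in iPSC and 0.158 FPKM in ESC. NSC was highest for all 3 genes and for Igf2. SC was lowest for Igfbp4 but next after NSC for Igfbp5 and Igfbp6.

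**Figure D2:**
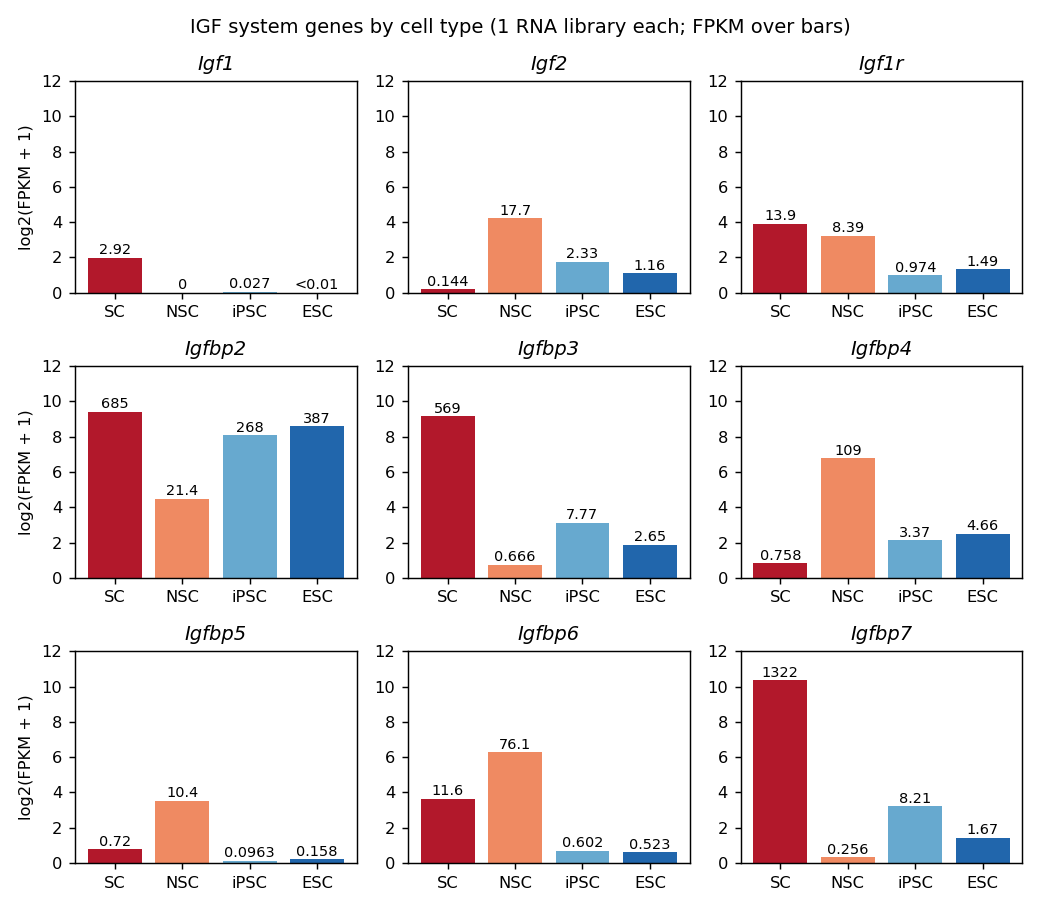
Level of each of the 9 genes (y axis, log2(FPKM + 1), transcripts of a gene summed, FPKM printed over each bar) in SC, NSC, iPSC and ESC (x axis, 1 RNA library each, no error can be shown). Igf1, Igfbp3 and Igfbp7 are highest in SC, and Igf2, Igfbp4, Igfbp5 and Igfbp6 in NSC.

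The SC library set against the NSC library split the IGF genes. At 2-fold or more, 4 of 9 members were higher in SC (Igf1, Igfbp2, Igfbp3 and Igfbp7) and 4 were lower (Igf2, Igfbp4, Igfbp5 and Igfbp6), with Igf1r between. Igf1 was listed at 0 in NSC, so it has no fold, and it did not pass with a pseudocount of 5. Of all 12433 genes at 1 FPKM or more in either library, 35.6% were higher in SC and 15% were lower, or 23.7% and 21.6% after median-ratio scaling. The log2(FPKM + 1) difference SC minus NSC was 10.03 for Igfbp7, 8.42 for Igfbp3 and 4.94 for Igfbp2. It was -5.97 for Igfbp4, -3.11 for Igf2, -2.73 for Igfbp5 and -2.62 for Igfbp6. Of all genes, 99.9% lay below Igfbp7 in this difference and 0.193% lay below Igfbp4, so both lay near the edges of the distribution. Of 10 fibroblast and myoid markers 7 reached 1 FPKM in SC and 2 in NSC; Thy1 went the other way, at 0.521 FPKM in SC and 3.38 FPKM in NSC, and Col3a1 was similar in both, at 27.9 FPKM in SC and 23.8 FPKM in NSC. Leydig cell markers, 4 in the table, summed to 104 FPKM in SC and 2.39 FPKM in NSC, with Cyp11a1 and Hsd3b1 listed at 0 in NSC. Of these markers 2 reached 1 FPKM in SC, Star at 56.0 FPKM and Cyp11a1 at 46.3 FPKM, and 1 in NSC. Insl3 went the other way, at 0.903 FPKM in SC and 1.43 FPKM in NSC. Neuron and glia markers, 5 in the table, summed to 889 FPKM in SC, of which Tubb3 gave 828 FPKM, and to 47.5 FPKM in NSC, with Rbfox3 listed at 0 in SC. The part of these markers in the Igfbp3 and Igfbp7 levels was not tested. In a bulk library a smaller number of expressing cells and less RNA per cell cannot be told apart.

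**Figure D3:**
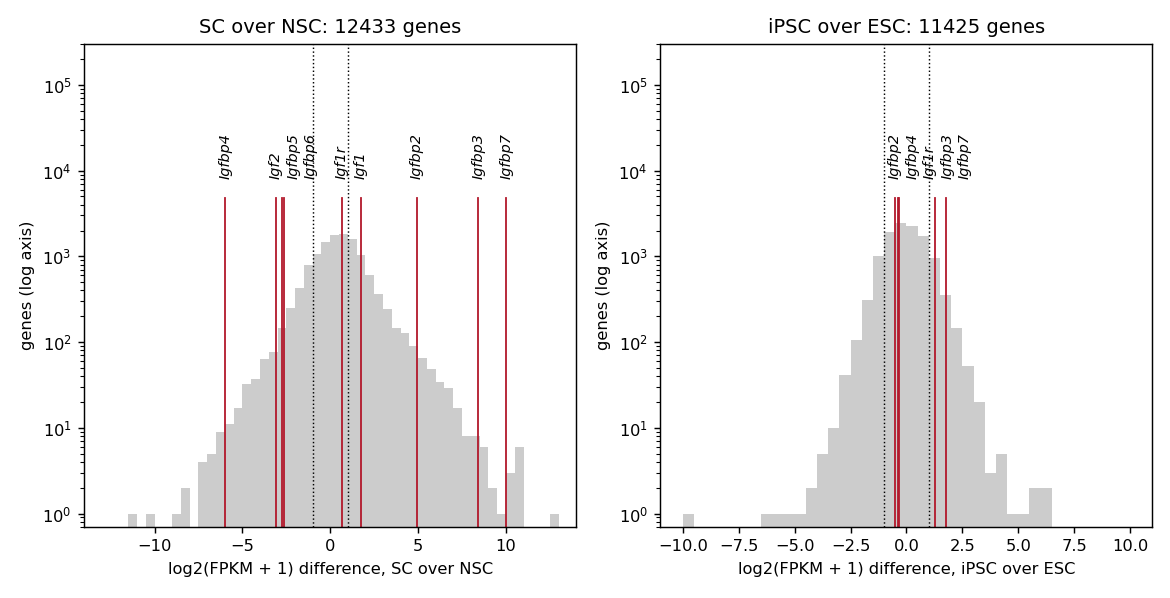
Distribution of the log2(FPKM + 1) difference over all genes (grey bars, number of genes on a log axis), SC over NSC at left and iPSC over ESC at right, with red lines at the IGF members that reached 1 FPKM and dotted lines at 2-fold. Igfbp7 and Igfbp3 lie at 10.03 and 8.42 and Igfbp4 at -5.97 in the left panel, while all members lie between -0.53 and 1.77 in the right panel.

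The iPSC and ESC libraries differed less. Judged on the row of highest mean FPKM, 5 of the 9 members reached 1 FPKM in either library. Igf2 did not, at 0.769 FPKM in iPSC and 0.430 FPKM in ESC on that row. Of the 5 members, 2 were at least 2-fold higher in iPSC. Igfbp3 stood at 7.77 FPKM in iPSC against 2.65 FPKM in ESC, and Igfbp7 at 8.13 FPKM in iPSC against 1.67 FPKM in ESC. With transcripts summed, 6 members reached 1 FPKM and the same 2 were higher. None was 2-fold lower. Over all 11425 genes 13.6% were higher in iPSC and 13% were lower. Of 10 fibroblast and myoid markers 5 reached 1 FPKM in iPSC and 3 in ESC. Acta2 stood at 18.8 FPKM in iPSC and 0.247 FPKM in ESC, and Tagln at 27.7 FPKM in iPSC and 1.12 FPKM in ESC. Pdgfrb went the other way, at 0.372 FPKM in iPSC and 1.03 FPKM in ESC, and Thy1 was similar, at 2.68 FPKM in iPSC and 2.80 FPKM in ESC. The part of these markers in the result was not tested. Igfbp2, Igfbp4 and Igf1r were somewhat lower in iPSC than in ESC, by 0.53, 0.37 and 0.33 on the log2(FPKM + 1) scale, all under 2-fold. With a pseudocount of 5 instead of 1, no member passed 2-fold between iPSC and ESC.

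Across the pairs, Igf1r and Igfbp6 were the members at least 2-fold higher in both differentiated libraries than in both pluripotent ones, 2 of 9 where 12.49% of all 13577 genes were. None of 9 was lower, against 5% of all genes. After scaling, the shares of all genes were 6.03% higher and 8.94% lower. For Igfbp6 the mean log2(FPKM + 1) difference was 4.32. For the other members the outcome depended on which of SC and NSC was used. Without the SC library, Igf1r, Igf2, Igfbp4, Igfbp5 and Igfbp6 were higher in NSC than in the pluripotent libraries and Igfbp2, Igfbp3 and Igfbp7 lower, beside 23% of all genes higher and 9.84% lower. Without the NSC library, Igf1, Igf1r, Igfbp3, Igfbp6 and Igfbp7 were higher in SC and Igfbp4 lower, beside 38.1% of all genes higher and 8.82% lower. When SC had to pass each of the other 3 libraries, Igf1, Igfbp3 and Igfbp7 were higher, 3 of 9 members beside 23.6% of all genes, and Igfbp4 was lower, 1 of 9 beside 2.84%. These shares of all genes were 12.2% higher and 6.07% lower after scaling. With a pseudocount of 5 neither Igf1 nor Igfbp4 passed in this comparison, and Igf1 was not among the genes tested at 5 FPKM or more or with genes listed at 0 left out.

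The genes with the most similar levels over the 4 RNA libraries were found by the distance of log2(FPKM + 1), over 12870 other genes. Levels were those of each gene's row of highest mean FPKM, so for Igf2 they were not the sums given above. Tpm1, a tropomyosin gene, was nearest to Igfbp7, at a distance of 1.07. The matrix metalloproteinase gene Mmp14 was among the 2 nearest to Igfbp3, at 1.03. Igfbp4 lay nearest to Anxa8 at 0.73, Igfbp6 to the monoamine oxidase gene Maob at 0.83, Igfbp5 to Serpinb8 at 0.23 and Igf2 to Tgfbi at 0.31. Igf1r lay nearest to Zfp768 at 0.25. Igfbp2 had no close neighbour, with Lars2 nearest at 1.44.

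The other receptors of the family were higher in NSC than in SC. Igf2r stood at 28.9 FPKM in SC, 109 FPKM in NSC, 12.2 FPKM in iPSC and 4.02 FPKM in ESC, and the insulin receptor gene Insr at 3.58, 11.6, 0.987 and 0.575 FPKM in the same order. Both were at least 2-fold higher in the differentiated pair than in the pluripotent pair. Igf1r transcripts were 3.89 times as abundant as Insr transcripts in SC and 0.722 times in NSC. Igf2r was 2.08 times as abundant as Igf1r in SC, 12.9 times in NSC, 12.54 times in iPSC and 2.70 times in ESC.

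The genes of proteins that act on IGF binding proteins were measured too. Pappa, the gene of PAPP-A, stood at 3.16 FPKM in SC and 0.0448 FPKM in iPSC and was listed at 0 in NSC and ESC, so the library with the highest Igfbp4 had Pappa listed at 0. Its inhibitor gene Stc2 stood at 11.4 FPKM in SC, 11.8 FPKM in NSC, 1.98 FPKM in iPSC and 1.42 FPKM in ESC. Among the proteases and their inhibitors, 4 genes reached 1 FPKM in SC or NSC. Of these, 3 were higher in SC than in NSC and 0 lower, where 35.6% of all genes were higher and 15% lower. Among the 3 was the matrix metalloproteinase gene Mmp2 at 50.0 FPKM in SC, 18.997 FPKM in NSC, 2.55 FPKM in iPSC and 3.36 FPKM in ESC. Among other binding and related proteins, 5 genes reached 1 FPKM in SC or NSC. Of these, Htra1, Ccn1 and Ccn2 were higher in SC, Ccn2 at 1559 FPKM against 0.00842 FPKM in NSC. Igfbpl1 was lower, at 0.0881 FPKM in SC and 4.72 FPKM in NSC. Igfals, whose protein joins IGFBP3 in a blood complex, was listed at 0 in SC and stood at 0.114 FPKM in NSC, 0.811 FPKM in iPSC and 3.22 FPKM in ESC.

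Downstream of the receptor, most genes of both kinase pathways did not pass 2-fold between SC and NSC. Of 18 genes from PI3K to FOXO, 4 were higher in SC than in NSC and 1 was lower, with a median log2(FPKM + 1) difference of -0.06, against 0.51 over all genes. Over all genes 35.6% were higher and 15% lower, or 23.7% and 21.6% after scaling, and the counts of the next lists are to be read against the same shares. Akt1 stood at 226 FPKM in SC, 75.6 FPKM in NSC, 12.2 FPKM in iPSC and 13.2 FPKM in ESC, and Akt2 at 161, 57.5, 8.80 and 17.9 FPKM in the same order. Of 10 genes from Ras to MAP kinase 3 were higher in SC and 0 lower, a share of higher genes near that of all genes. Among receptor substrates and adaptors, 3 of 8 genes at 1 FPKM or more in SC or NSC were higher in SC and 2 lower. The substrate gene Irs1 stood at 2.72 FPKM in SC and 0.742 FPKM in NSC, and Irs2 at 2.55 FPKM in SC and 15.3 FPKM in NSC. The imprinted adaptor gene Grb10 stood at 8.97 FPKM in SC, 42.4 FPKM in NSC, 8.59 FPKM in iPSC and 0.123 FPKM in ESC. Over all 6 lists with measured genes, 48 genes reached 1 FPKM in at least 1 library. Of these, 10 were higher in both differentiated libraries than in both pluripotent ones and 0 were lower. The shares of all genes were 12.49% and 5%, or 6.03% and 8.94% after scaling. These lists were chosen with earlier results of these data known, and their shares are descriptions.

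**Figure D4:**
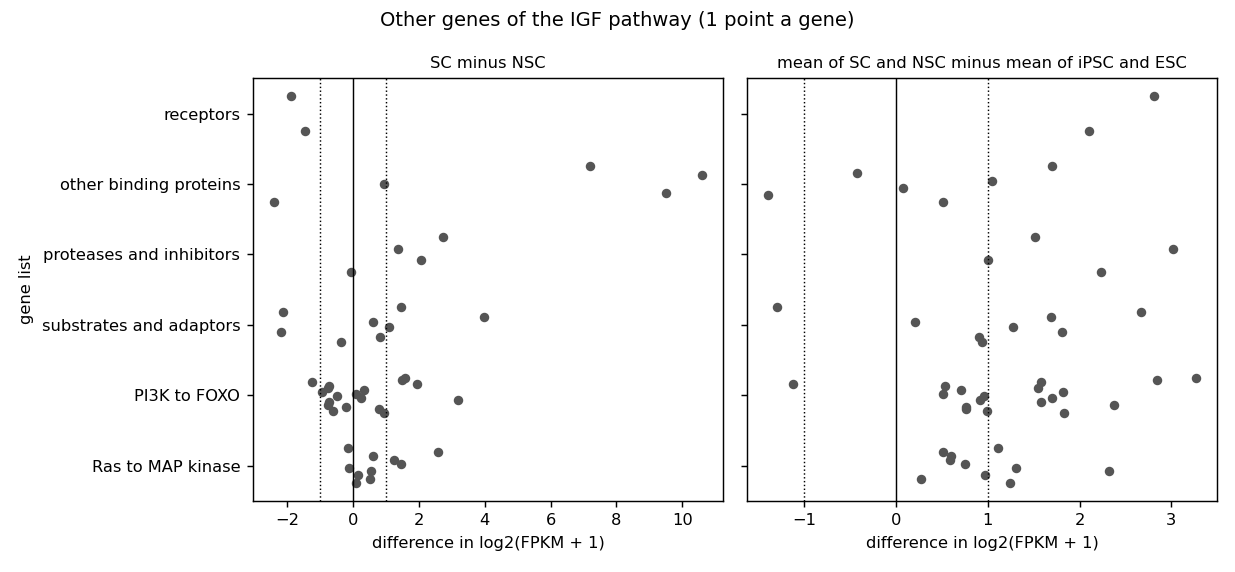
Differences in log2(FPKM + 1) for other genes of the pathway, 1 point a gene, by list (rows), SC minus NSC at left and the mean of SC and NSC minus the mean of iPSC and ESC at right, dotted lines at 2-fold. Both other receptors lie left of zero in the left panel and right of the 2-fold line in the right panel, and Ccn1, Ccn2 and Htra1 are the points farthest to the right in the left panel.

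The m6A data are yes/no calls for 5 regions of each transcript. Besides the 5' UTR, the coding sequence (CDS) and the 3' UTR these are TcSS and TsTS, abbreviations the table leaves unexplained. A call has no height. Of 180 combinations of gene, cell type and region, 41 were called, with members under 1 FPKM included. No such share was computed over all genes, so this count only describes the members. Among members at 1 FPKM or more, 5 of 6 were called in SC, where 66.7% of all such genes were, 4 of 6 in NSC (58% of all genes), 3 of 4 in iPSC (69.2%) and 3 of 5 in ESC (69%). For these counts a level was that of the row of highest mean FPKM, so Igf2 lay under 1 FPKM in iPSC and ESC. The counts are too small to set the family apart from other genes. What differed was the gene and the region.

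By region, among members at 1 FPKM or more, SC had 3 of 6 called in TcSS (12.2% of all expressed genes), 0 in the 5' UTR (4.71%), 3 in CDS (46.1%), 3 in TsTS (43.1%) and 2 in the 3' UTR (22%). NSC had 2 of 6 called in TcSS (12.48%) and 2 in the 5' UTR (5.07%), Igfbp2 and Igfbp5 in TcSS and Igf1r and Igfbp5 in the 5' UTR. In NSC 4 of 6 were called in each of CDS (43.6%), TsTS (36.8%) and the 3' UTR (27.1%), by the same 4 members, Igf1r, Igfbp2, Igfbp4 and Igfbp5. In iPSC 0 of 4 were called in TcSS (11.9%) or the 5' UTR (4.58%), 1 in CDS (45.2%), 2 in TsTS (47.5%) and 1 in the 3' UTR (32.3%). ESC had 1 of 5 called in TcSS (16.5%), 0 in the 5' UTR (3.13%), 1 in CDS (40.8%), 2 in TsTS (48.5%) and 2 in the 3' UTR (26%). Members under 1 FPKM were called in 0 of 3 cases in SC, 1 of 3 in NSC, 1 of 5 in iPSC and 0 of 4 in ESC, beside 5.28%, 6.81%, 14% and 14.6% of all such genes.

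**Figure D5:**
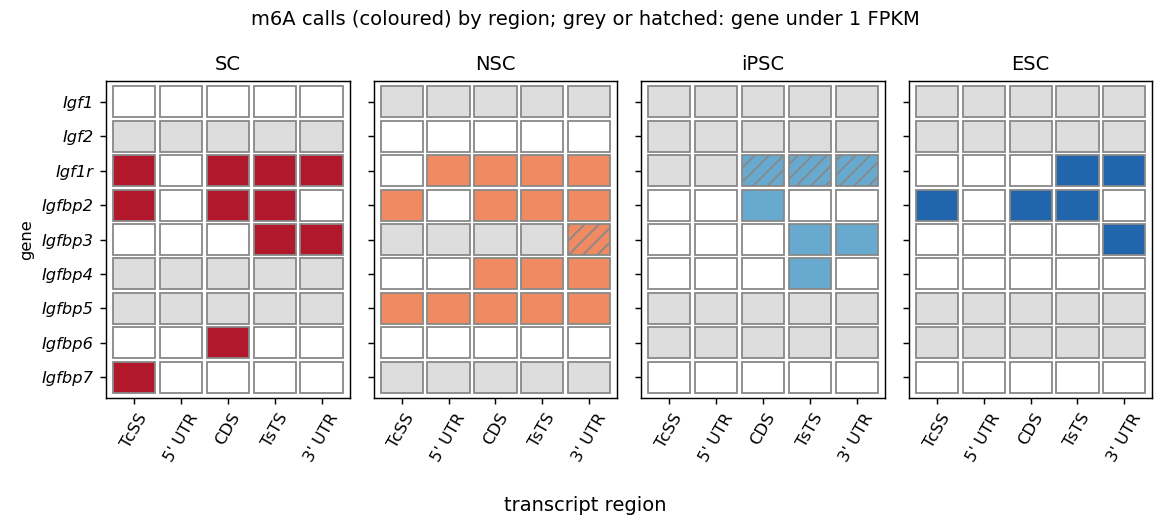
m6A calls of the 9 genes (rows) by region (x axis) in SC, NSC, iPSC and ESC (panels, 1 m6A library each). Filled squares are called, white ones are not, grey ones are not called in a gene under 1 FPKM, and hatched ones are called in a gene under 1 FPKM. Igf1r, Igfbp2 and Igfbp3 are called in every panel, Igf1 and Igf2 in none, and Igfbp5 in NSC only, in all 5 regions. The shares of all genes called in every panel or in none were not computed.

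Igf1r, Igfbp2 and Igfbp3 were called in all 4 cell types, 2 of these calls being in a gene under 1 FPKM there. The share of all genes called in all 4 was not computed, so this only describes the members. Igf1r was called in TcSS, CDS, TsTS and 3' UTR in SC, in the 5' UTR, CDS, TsTS and 3' UTR in NSC, in CDS, TsTS and 3' UTR in iPSC at 0.974 FPKM, and in TsTS and 3' UTR in ESC. TsTS and 3' UTR were thus shared by all 4. Igfbp2 was called in TcSS, CDS and TsTS in both SC and ESC, in the 3' UTR as well in NSC, and in CDS alone in iPSC. Its level in iPSC was 268 FPKM, and 42.6% of 270 other genes within 2-fold of that level had any call there. Igfbp3 was called in the 3' UTR throughout and in TsTS also in SC and iPSC, never in CDS. In NSC it stood at 0.666 FPKM, where 6.81% of genes under 1 FPKM carried any call.

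Among the binding proteins highest in NSC, each had a different pattern of calls. Igfbp5 was called in all 5 regions in NSC, a breadth shared by 93 of 10986 expressed genes there (0.847%), and in no other cell type, where it lay under 1 FPKM. Igfbp4 was called in CDS, TsTS and 3' UTR in NSC at 109 FPKM, in TsTS alone in iPSC at 3.37 FPKM, and in no region in ESC at 4.66 FPKM. Igfbp6 carried no call in NSC at 76.1 FPKM, as did 55.8% of the 1286 other genes within 2-fold of its level, and a CDS call in SC at 11.6 FPKM. For Igfbp6 the call was therefore in the library with the lower level.

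Igf1 and Igf2 carried no call in any row. Igf2 stood at 7.99 FPKM in NSC for its most abundant row, and 66.1% of 4741 other genes within 2-fold of that level were called. For Igf1 in SC, at 2.31 FPKM, 52.9% of 2278 such genes were called. Igfbp7 carried a TcSS call only, on both of its rows, in SC at 1314 FPKM. Of the 167 other genes within 2-fold of this level 46.1% had any call and 7 had the same pattern of TcSS alone. In iPSC and ESC it was uncalled at 8.13 and 1.67 FPKM. Igf2r at 109 FPKM in NSC was also uncalled, with 2, 3 and 2 regions called in SC, iPSC and ESC.

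m6A is usually placed in a short sequence around the letters GGAC, with GGACT the preferred form, and often near the stop codon. The RNA sequences of the members, from GENCODE M21 (GRCm38) transcripts matched by RefSeq identifier for 9 of 9 members, were searched on the transcribed strand for both forms; every GGACT is also counted as a GGAC. The window of 100 bases to each side of the end of the coding sequence held GGACT in 2 of 9 members, Igfbp4 and Igfbp5, and in 24.6% of 13636 transcripts. It held GGAC in 6 of 9 members and in 62.2% of transcripts. The closest GGAC to the end of the stop codon is shown for 3 of the members called in TsTS with a site in the window, for Igf2 and Igfbp6 as genes with a close site and no TsTS call, and for Igfbp2 and Igfbp7 as genes whose window held none. Capitals mark GGAC and the base after it, and lines run 5′ to 3′ as DNA letters.
Igfbp4: agcaggtgggGGACTcagtgccccc
Igfbp5: acgtggatggGGACTttcagtgcca
Igf1r: gctgatcctcGGACAcaccgaagca
Igf2: tcttgagcagGGACAgttccatcac
Igfbp6: ggagcctccaGGACGccagcaggaa
Igfbp2: gtctctgaacGGACAgcgcggggag
Igfbp7: taagtaaggaGGACGctggagagta

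Counted from the end of the stop codon, the A of the shown site lay at base 21 of the 3' UTR in Igfbp4, base 8 in Igf1r, base 64 in Igf2 and base 22 in Igfbp6. In Igfbp5 it lay 41 bases, in Igfbp7 125 bases and in Igfbp2 145 bases before that point, inside the coding sequence. The members with GGACT in the window, Igfbp4 and Igfbp5, were both called in TsTS in NSC. In NSC, 32.7% of 3957 genes called in TsTS held GGACT in this window, against 20.1% of 6126 genes not called. The extent of TsTS is not given, so the window may not cover the same bases. GGAC in the window and a TsTS call did not go together in every member. Igfbp2 was called in TsTS in 3 cell types. It had no GGACT in the whole transcript and no GGAC in its 3' UTR, and its closest GGAC lay outside the window. Igf2 and Igfbp6, with GGAC in the window after the stop codon, were not called in TsTS. A match is a string of letters and not a mapped methylation site.

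The 3' UTR lengths of members with and without 3' UTR calls overlapped. The 3' UTR spanned 7267 bases in Igf1r, 4445 in Igfbp5, 2813 in Igfbp4 and 1435 in Igfbp3, all called there in NSC, and 312 bases in Igfbp2, called there in NSC only. It spanned 240 bases in Igfbp7 and 209 in Igfbp6, both never called there, but also 6308 in Igf1 and 3047 in Igf2, likewise never called there. The median over 14539 transcripts was 905 bases. Igf1r held 9 GGACT in its 3' UTR and 5 in its coding sequence, and Igf1 held 2 and 0.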

How the data were processed

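RNA and m6A libraries of 4 mouse cell types were used, 1 of each per cell type. The FPKM values per RefSeq transcript and the m6A calls (1 modified, 0 not) were made by the authors, per the file headers. Tools listed, with no roles, are Cufflinks 2.0.2, TopHat2 2.0.4 and CASAVA, and the build is mm9, per the submitters' processing notes. The peak caller is not given in the sources used here. Since names came from annotation of another build, no coordinates are given.

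Symbols came from RefSeq GRCm38.p6 (19446 transcripts) and GENCODE M21 (104), and 226 transcripts had no match. A gene is its transcript of highest mean FPKM, except where sums over transcripts are stated (levels per gene, shares and ratios). Differences are of log2(FPKM + 1), among genes at 1 FPKM or more in a library compared, and a gene counts past 2-fold only if every library on one side passes every one on the other. With 1 library per group there was no test. Low values of genes with 1 transcript showed no common step between libraries (at most 1.60% in a bin of 0.02 log2), so read counts were not recovered and depth is unknown. Values of exactly 0 may be failed estimates and are called listed at 0. Members, lists and rules were chosen with earlier results of these data known. All 9 members are named. The 2 nearest genes of each were found by Euclidean distance, leaving out members and RIKEN, Gm, LOC, Mir, Snor and Y-linked symbols. Of the other pathway genes, those past 2-fold in most of the 4 comparisons were named (Igf2r, Ccn1, Ccn2, Mmp2, Akt1 and Akt2); Insr, Htra1, Igfbpl1, Igfals, Pappa, Stc2, Irs1, Irs2 and Grb10 were chosen after their values were seen. Some genes that these rules name are not reported here. Ins1, Ins2, H19, Insrr, Igfbp1, Pappa2 and Adam28 were not analysed here. Python 3.11.15, pandas 2.3.3 and numpy 2.4.6 were used. Alternatives covered pseudocounts of 0.1 and 5, filters, summed transcripts, median-ratio scaling, genes at 0 and left-out libraries.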

Additional observations from a re-analysis of the deposited data

How the results depend on the processing

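No paired analysis was possible because each cell type has 1 library. No replicate could be left out for the same reason, and depth limits cannot be given. Scaling by the median ratio moved the median of all genes from 0.51 to 0.02 (SC over NSC) and from 0.64 to 0.06 (differentiated over pluripotent). The 2-fold counts of members were the same after it, and so were the members that passed in all 4 comparisons. With pseudocount 5, members higher in iPSC than in ESC numbered 0, and those lower in SC than in each other library 0; with pseudocount 0.1 the second count was 2, Igf2 joining Igfbp4. Without the SC library, 5 members were higher and 3 lower in NSC than in the pluripotent pair, and the differences of Igfbp3 (-1.76) and Igfbp7 (-1.98) were reversed. Without NSC, 5 were higher and 1 lower in SC, and those of Igfbp2 (1.08) and Igfbp4 (-1.50) were reversed; fewer libraries then have to pass. Leaving NSC out of the comparison of SC with each other library, chosen after seeing the data, gives the same comparison and the same 5 higher (38.1% of all genes). With at least 2 regions required, called members numbered 3 of 6 in SC (40% of all genes) and 1 of 4 in iPSC (44.7%), and at 5 FPKM or more 1 was called in ESC, where 1 member was left (73.2%). On the most abundant transcript alone the Igfbp7 share in SC was 50.9% and the Igfbp2 share in iPSC 93.1%. The other 73 values of counts of members and of shares stayed within 1.5 times of those reported.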
